A study of Mus musculus with 12 samples.

Results

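The 10 genes described here, *Hsd3b5*, *Elovl3*, *Nudt7*, *Cyp2d9*, *Cyp4a12a*, *Cyp4a12b*, *Slco1a1*, *C6*, *Susd4* and *Cspg5*, are grouped as liver genes that depend on pulsatile growth hormone. They were chosen by name, with the genotype and diet differences of these same livers already known, so their levels and fold changes are given as a description. Where the 10 are counted as called, the call is that of the fit over all genes, and nothing is supported with it. All 10 were listed in both deposited tables of read counts, of which the one for chow listed 20775 genes and the one for HFCF 22709, with 20093 genes in common. All 10 also passed the filter on low counts in every comparison. The label itself could not be checked in these data, since all mice were male and growth hormone was not measured.

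RNA-seq was performed on whole liver of 12 male mice, with 3 livers in each of 4 groups. Per the labels, every mouse was of the C57BL/6N strain, carried the floxed *Elavl1* allele that encodes HuR (HuR flox/flox), was 4 to 6 months old and received an adeno-associated virus. The groups were chow WT (AAV8-Tbg-null, normal chow), chow HuRHep-/- (AAV8-Tbg-Cre, normal chow), HFCF WT (AAV8-Tbg-null) and HFCF HuRHep-/- (AAV8-Tbg-Cre), the latter pair after 16 weeks on a diet high in fat (40 kcal%), cholesterol (2%) and fructose (20 kcal%). Tbg is a promoter active in hepatocytes, so that Cre acts on hepatocytes and the other cells of the liver keep *Elavl1*. The methods of the study describe other mice, with Cre driven by the albumin promoter and a younger age, and the tables do not show which account holds. The 2 diets were counted in separate tables, so diet and whatever else differed between the tables cannot be told apart.

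*Elavl1*, the targeted gene, was higher in the livers labelled HuRHep-/-. It had 938, 876 and 948 raw counts in chow WT and 1475, 1265 and 1261 in chow HuRHep-/-, and 904, 791 and 849 in HFCF WT against 1299, 1242 and 1271 in HFCF HuRHep-/-. The log2 fold change, given here and below with ± its standard error, was 0.41 ± 0.0680 in chow (adjusted p = 0.022, limma) and 0.38 ± 0.0720 in HFCF (adjusted p = 0.0327, limma). Both were under the 1.5-fold limit used below for a call. This goes against the label, and the counts cover the whole gene, including exons outside a deleted stretch. Each direction given for genotype below rests on the labels. Libraries held 30071731 to 35949203 counts on genes, and mitochondrial genes took 10.4% to 12.9% of them. Within HFCF WT, replicate 3 lay apart from the other livers for most of the 10 genes. Where counts of called or not overlapping genes among the 10 rest on it, they are given with and without it. Correlations are given only with it.

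In male rodents the pituitary releases growth hormone in pulses separated by quiet intervals, whereas in females its level in blood is more constant. Each pulse acts on the growth hormone receptor of hepatocytes, which activates the kinase JAK2 and the transcription factor STAT5B, and STAT5B then enters the nucleus. A large part of the difference between male and female mouse liver, including many cytochrome P450, steroid-metabolising and major urinary protein genes, follows this rhythm. Male-pattern genes lose expression, and female-pattern genes gain it, when the pulses or STAT5B are lost. These statements are background and not results of these livers.

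Stretches upstream of 3 of the genes are shown, for a transporter, a cytochrome P450 and a complement gene. These 3 are among the 6 genes lower in all HFCF HuRHep-/- livers than in any HFCF WT liver. Of all genes tested, 17.5% were in that state. The stretches of *Nudt7*, another of the 6, were left out for length. They are RefSeq promoter windows on GRCm38.p6, read 5′ to 3′ on the strand of the gene from 250 bases before the RefSeq start, and end before the first GENCODE exon met or at the start. That of *Cyp2d9* lies inside the longer GENCODE gene, which begins further upstream, and overlaps none of its exons. *Slco1a1* is at chr6:141946963-141947212 on the minus strand, *Cyp2d9* at chr15:82452127-82452333 on the plus strand and *C6* at chr15:4726960-4727174 on the plus strand. Capitals mark the word TATAAA on either strand.
Slco1a1: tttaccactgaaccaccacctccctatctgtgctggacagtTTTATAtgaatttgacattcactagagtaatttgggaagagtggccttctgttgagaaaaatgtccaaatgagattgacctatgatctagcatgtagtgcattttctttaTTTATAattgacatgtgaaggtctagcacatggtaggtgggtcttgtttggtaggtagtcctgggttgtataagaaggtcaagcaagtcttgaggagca
Cyp2d9: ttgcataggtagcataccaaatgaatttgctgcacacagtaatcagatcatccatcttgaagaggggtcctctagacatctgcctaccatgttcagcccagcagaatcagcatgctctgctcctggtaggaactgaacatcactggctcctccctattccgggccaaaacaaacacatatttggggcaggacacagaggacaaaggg
C6: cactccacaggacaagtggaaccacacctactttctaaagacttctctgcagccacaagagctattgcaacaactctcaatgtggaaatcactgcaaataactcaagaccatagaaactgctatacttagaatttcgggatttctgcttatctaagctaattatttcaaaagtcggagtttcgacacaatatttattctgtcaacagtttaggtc

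The promoter table held windows of 300 bases (250 before to 50 after the start) for 6 of the 10 genes, 8 windows in all, and none for *Elovl3*, *Cyp4a12a*, *Cyp4a12b* and *Cspg5*. The spaced palindrome TTCNNNGAA, the form of site that STAT5 proteins bind, was searched on both strands and was found in 0 of the 6 genes, against 9.55% of 27025 genes with windows of that length. The window of *Hsd3b5*, chr3:98645485-98645784 on the minus strand, lies outside its GENCODE gene, upstream of it, and the first bases after its start are in no GENCODE transcript of the gene, so the 0 for *Hsd3b5* holds for that RefSeq window only. ATTGAT, a core of sites for CUX and ONECUT factors, and CACGTG, the E-box of clock factors, were also found in 0 of the 6, against 8.63% and 8.09% of genes. TATAAA was present in *Slco1a1* at -209 and -99 and in *Cyp2d9* at -28 from the start, beyond the stretch shown, in each case on the opposite strand, and in 15.7% of all genes. These are matches of letters within 300 bases and say nothing on binding further away.

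*Cyp4a12a* and *Cyp4a12b* are neighbours on chromosome 4 of GRCm38 (115299046 to 115332815 and 115411624 to 115439034, plus strand), each with 12 exon blocks. Their coding sequences of 1524 bases have 1501 bases in common (98.5%). The 120 coding bases with the most differences (8) are shown from GENCODE transcripts, to show how little separates the reads of the pair. They are coding bases 644 to 763, counted from 1 at the start codon, and capitals mark the bases that differ.
Cyp4a12a: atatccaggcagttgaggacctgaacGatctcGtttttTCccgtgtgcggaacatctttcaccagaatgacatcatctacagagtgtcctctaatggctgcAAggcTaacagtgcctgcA
Cyp4a12b: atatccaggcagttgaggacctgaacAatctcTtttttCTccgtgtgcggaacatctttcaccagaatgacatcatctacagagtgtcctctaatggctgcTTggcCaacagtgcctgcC

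Of all 31-base words of the longest transcript, 62.2% in *Cyp4a12a* and 62.9% in *Cyp4a12b* occurred in the other gene. The counts of the pair are therefore uncertain one by one. *Cyp2d9* shared 46.4% of its words with other genes, most with *Cyp2d12* (21.2%), and *Hsd3b5* shared 34.1%, most with *Gm10681* (25.6%). Exons of *Gm46501* and *Gm27622* overlap 9.26% of those of *Cyp2d9* on the same strand. *Slco1a1* shared 5.47%, and none of the other 5 genes more than 1.81%. *Elovl3* overlaps *Pitx3* on the opposite strand, and the counting is stated to use strand.

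In every one of the 10 genes, the HFCF livers labelled HuRHep-/- had the lowest group mean. The 2 chow genotypes overlapped in 9 of 10 genes. The estimated fall from chow to HFCF was larger in livers labelled HuRHep-/- than in WT for all 10. Levels below are in CPM, read counts divided by library size with TMM factors over the 12 libraries, and log2 fold changes come from limma on log2 CPM with a pseudocount of 0.5. In bulk liver, fewer cells of a type and less RNA per cell cannot be told apart. The plot of levels by liver shows all 10 genes.

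**Figure D1:**
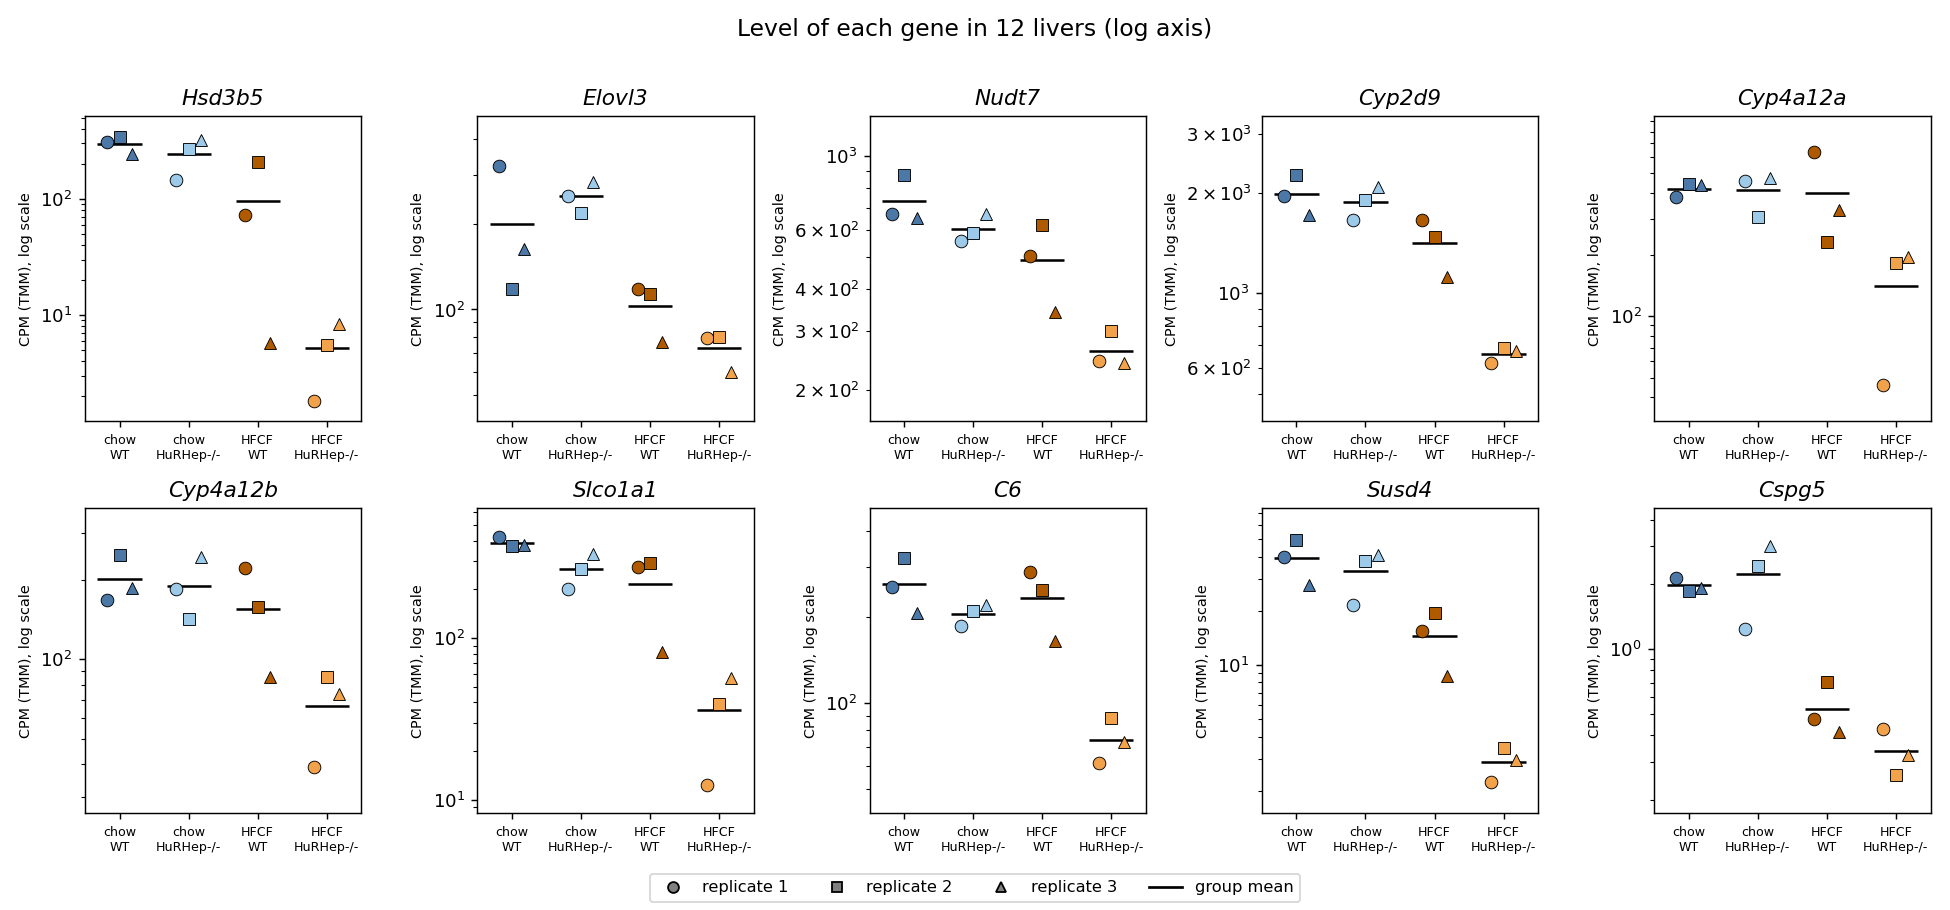
Level of each of the 10 genes in CPM (log axis) in the 4 groups of 3 livers, with 1 point per liver, the marker shape giving the replicate number and the bar the group mean. The HFCF HuRHep-/- group has the lowest mean in all 10 panels, and in HFCF WT the triangle (replicate 3) is the lowest of its group in 9 of 10.

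*Hsd3b5* (ENSMUSG00000038092, chromosome 3, 98618634 to 98630252, minus strand) encodes a 3-ketosteroid reductase of the hydroxysteroid dehydrogenase family found in male mouse liver. Its level was 309, 344 and 245 CPM in chow WT and 145, 269.6 and 323 CPM in chow HuRHep-/- (replicates 1 to 3). Under HFCF it was 73.2, 207 and 5.72 CPM in WT and 1.82, 5.49 and 8.35 CPM in HuRHep-/-. All 3 HFCF HuRHep-/- livers and HFCF WT replicate 3 were below 9 CPM, while the other 8 livers lay at 73.2 CPM or more, so that the genotypes overlapped under HFCF through 1 liver. The HFCF genotype log2 fold change was -3.35 ± 1.25 with all livers. It was -4.82 without HFCF WT replicate 3, -2.24 without HFCF WT replicate 2, -2.72 without HFCF HuRHep-/- replicate 1 and -3.81 to -2.98 without any 1 of the other 3 libraries. The fall from chow to HFCF in livers labelled HuRHep-/- was 53.1-fold, the largest of the 10 genes.

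*Elovl3* (ENSMUSG00000038754, chromosome 19, 46131897 to 46135694, plus strand) encodes an elongase of very long chain fatty acids. Chow WT livers had 322, 118 and 163 CPM and chow HuRHep-/- livers 252, 219.5 and 283 CPM. HFCF WT livers had 118, 113 and 76.6 CPM and HFCF HuRHep-/- livers 79.6, 79.9 and 60.3 CPM. The chow WT livers were the most scattered, with the highest 2.73 times the lowest, and the genotypes overlapped under both diets. *Elovl3* had the smallest genotype difference of the 10 under HFCF, -0.49 ± 0.188, and fell 3.45-fold from chow to HFCF in livers labelled HuRHep-/-.

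*Nudt7* (ENSMUSG00000031767, chromosome 8, 114133557 to 114154739, plus strand) encodes a peroxisomal nudix hydrolase that splits coenzyme A. It measured 671, 877 and 654 CPM in chow WT and 555, 587 and 672 CPM in chow HuRHep-/-. After HFCF it measured 500.4, 622 and 342 CPM in WT and 244, 300.4 and 241 CPM in HuRHep-/-, without overlap. Its mean in HFCF HuRHep-/- decreased by 46.4% relative to HFCF WT, the fold change of log2 values being -0.88 ± 0.213.

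*Cyp2d9* (ENSMUSG00000068086, chromosome 15, 82433437 to 82456845, plus strand), a testosterone 16 alpha-hydroxylase of male mouse liver, was the most abundant of the genes. Chow WT livers had 1953, 2256 and 1715 CPM and chow HuRHep-/- livers 1658, 1896 and 2081 CPM. HFCF WT livers had 1651, 1472 and 1115 CPM, and HFCF HuRHep-/- livers 621, 685 and 672 CPM. The last group was the tightest of the 4, with a standard deviation of 5.12% of its mean, and lay below every other liver. The HFCF genotype log2 fold change was -1.10 ± 0.149, a 2.14-fold lower level, against -0.06 ± 0.134 in chow.

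*Cyp4a12a* (ENSMUSG00000066071), the fatty acid omega-hydroxylase that makes 20-HETE in male mice, read 382, 442 and 440.1 CPM in chow WT and 459.7, 307 and 474 CPM in chow HuRHep-/-. HFCF WT livers spanned the widest range of CPM, at 635, 232 and 332 CPM, and HFCF HuRHep-/- livers read 45.7, 182 and 194 CPM. Its near copy *Cyp4a12b* (ENSMUSG00000078597) read 168, 249 and 187 CPM in chow WT and 184, 142 and 244 CPM in chow HuRHep-/-. Both were higher in HFCF WT replicate 1 than in any other HFCF liver and lowest in HFCF HuRHep-/- replicate 1. Under HFCF, *Cyp4a12b* read 222, 158 and 85.7 CPM in WT and 39.1, 85.8 and 74.1 CPM in HuRHep-/-, which overlapped, whereas the *Cyp4a12a* groups did not.

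Since reads could be split between the pair, their counts were also summed. The sum had a log2 fold change of -0.06 (standard error 0.172) for genotype in chow, -1.52 (standard error 0.496) for genotype in HFCF and -1.70 (standard error 0.411) for diet in livers labelled HuRHep-/-. The ratio of *Cyp4a12a* to *Cyp4a12b* counts ran from 1.77 to 2.50 in the 6 chow livers and from 1.17 to 3.87 in the 6 HFCF livers. HFCF WT replicate 3 held the highest ratio and HFCF HuRHep-/- replicate 1 the lowest.

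**Figure D2:**
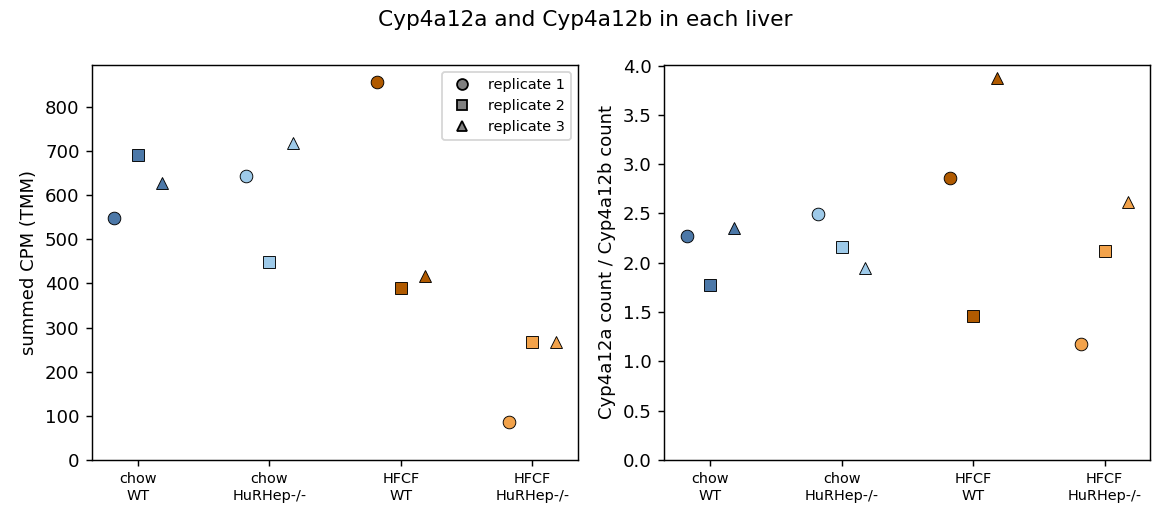
Left, summed CPM of Cyp4a12a and Cyp4a12b per liver, and right, the ratio of the 2 raw counts, in the 4 groups, with the marker shape giving the replicate. The sum spans 389.7 to 857 CPM in HFCF WT and 84.8 to 268 CPM in HFCF HuRHep-/-, and the ratio is most scattered in the HFCF livers.

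*Slco1a1* (ENSMUSG00000041698, chromosome 6, 141907282 to 141946962, minus strand) encodes OATP1A1, an organic anion transporter of the hepatocyte membrane facing the blood. It was the only one of the 10 whose chow genotypes did not overlap. Chow WT livers had 425, 369.9 and 374 CPM and chow HuRHep-/- livers 200.1, 266 and 333 CPM. Under HFCF the WT livers had 275, 291 and 82.2 CPM and the HuRHep-/- livers 12.4, 39.0 and 56.4 CPM. HFCF WT replicate 3 stood 3.54-fold below replicate 2, yet above all HuRHep-/- livers, and the log2 fold change for genotype was -0.57 ± 0.167 in chow and -2.65 ± 0.664 in HFCF.

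*C6* (ENSMUSG00000022181, chromosome 15, 4727175 to 4814967, plus strand) encodes complement component 6 of the membrane attack complex. Its levels in chow were 255, 322 and 207 CPM in WT and 186, 210.0 and 219.9 CPM in HuRHep-/-. HFCF WT livers kept 287, 250.01 and 164 CPM, inside the range of the chow livers for 2 of 3, whereas HFCF HuRHep-/- livers had 61.4, 88.3 and 72.6 CPM. *C6* thus had the smallest diet difference of the 10 in WT, -0.17 ± 0.208, beside -1.48 ± 0.208 in livers labelled HuRHep-/-. The 3 HFCF HuRHep-/- livers lay below all 9 others, and the genotype log2 fold change under HFCF was -1.65 ± 0.221.

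*Susd4* (ENSMUSG00000038576, chromosome 1, 182763860 to 182896591, plus strand) encodes a membrane protein with complement control domains. Chow WT livers had 39.9, 49.7 and 28.0 CPM and chow HuRHep-/- livers 21.7, 37.7 and 41.0 CPM. The HFCF values were 15.5, 19.4 and 8.67 CPM in WT and 2.24, 3.45 and 2.96 CPM in HuRHep-/-. The groups formed 3 separate levels, with both chow groups overlapping at the top, HFCF WT in between and HFCF HuRHep-/- at the bottom. Genotype in HFCF gave -2.29 ± 0.306, a 4.89-fold lower level, and diet gave -1.47 ± 0.322 in WT and -3.50 ± 0.322 in HuRHep-/-.

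*Cspg5* (ENSMUSG00000032482, chromosome 9, 110243783 to 110262576, plus strand) encodes a chondroitin sulfate proteoglycan best known from brain and was the least abundant of the genes, with 65, 56 and 59 raw counts in chow WT and 43, 79 and 98 in chow HuRHep-/-. HFCF livers had 18, 23 and 13 raw counts in WT and 17, 10 and 12 in HuRHep-/-. Every HFCF liver was below every chow liver, and the genotypes overlapped under both diets. Diet gave a log2 fold change of -1.91 ± 0.331 in WT and -2.63 ± 0.331 in HuRHep-/-, the largest in WT after *Hsd3b5*.

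Per kilobase of exon, the genes of chow WT livers were ordered *Cyp2d9* (743 ± 102 CPM per kb, SD, n = 3), *Hsd3b5* (193 ± 32.2), *Cyp4a12a* (174 ± 14.2), *Nudt7* (131 ± 22.0), *Elovl3* (102 ± 54.2), *Cyp4a12b* (84.1 ± 17.8), *Slco1a1* (73.8 ± 5.78), *C6* (73.5 ± 16.3), *Susd4* (10.2 ± 2.81) and *Cspg5* (0.197 ± 0.0140). Neighbours from *Hsd3b5* to *C6* differed by less than their standard deviations combined, except *Cyp4a12a* over *Nudt7*. In HFCF livers labelled HuRHep-/- *Hsd3b5* was the eighth, at 3.37 ± 2.11 CPM per kb, below *Slco1a1* at 6.81 ± 4.20, while *Cyp2d9* was still the first, at 248 ± 12.7.

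Genotype under chow was compared first. The call for a gene needed a limma adjusted p no higher than 0.05, a change of 1.5-fold or more and a sum of 10 or more counts in each group compared. None of the 10 genes was called in chow, where 0.954% of 13526 genes were called lower and 1.27% higher in HuRHep-/- livers. The estimate was below 0 for 8 genes, *Elovl3* and *Cspg5* being the exceptions, and the median log2 fold change was -0.16, against 0.00 over all genes tested. Without 1 library the median was -0.31 (chow HuRHep-/- replicate 3) to -0.02 (chow WT replicate 2), with 6 to 9 genes below 0. The range over genes was -0.57 (*Slco1a1*) to 0.45 (*Elovl3*). In 1 of the 10 genes the HuRHep-/- livers lay below all WT livers, a state that 14.5% of all genes tested had.

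Under HFCF all 10 estimates for genotype were below 0, with a median log2 fold change of -1.43, against 0.00 over all genes tested. *Susd4* (-2.29), *C6* (-1.65) and *Cyp2d9* (-1.10) were called lower, beside 1.47% of 14295 genes called lower and 2.15% called higher. The groups did not overlap for 6 genes, *Susd4*, *C6*, *Cyp2d9*, *Slco1a1*, *Cyp4a12a* and *Nudt7*, beside 17.5% of all genes. They did not overlap for any of the 10 without HFCF WT replicate 3, beside 23.3% of all genes, and without any 1 of the other 5 libraries they did not for 6 or 7, beside 20.8% to 22% of all genes. *Hsd3b5* and *Slco1a1* had the largest differences, 10.2-fold and 6.29-fold lower, with standard errors of 1.25 and 0.664 on the log2 scale. Without 1 library the log2 estimate of *Slco1a1* ran from -3.24 (HFCF WT replicate 3) to -2.01 (HFCF HuRHep-/- replicate 1). The genes were chosen with this contrast known, so nothing is read from these shares.

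The count of genes called in HFCF changed when 1 library was left out, and so did the share called over all genes. Among the genes called with all libraries, the estimate without 1 library ran from -2.62 to -2.04 for *Susd4* and -1.88 to -1.47 for *C6*. That for *Cyp2d9* ran from -1.25 to -0.96. Without HFCF WT replicate 3, 8 genes were called lower (all but *Cyp4a12a* and *Cspg5*), beside 1.87% of all genes in that fit, and the median log2 fold change was -1.65. Without HFCF WT replicate 1, or without any 1 of HFCF HuRHep-/- replicates 1, 2 and 3, 0 genes were called, beside 0.142% to 0.499% of all genes called lower. Without HFCF WT replicate 2, 3 genes were, beside 1.09%. The estimate was below 0 for all 10 genes in each of these 6 fits, with medians of -1.01 to -1.65. In a fit on all 12 libraries 6 genes were called, beside 1.75% of all genes called lower.

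**Figure D3:**
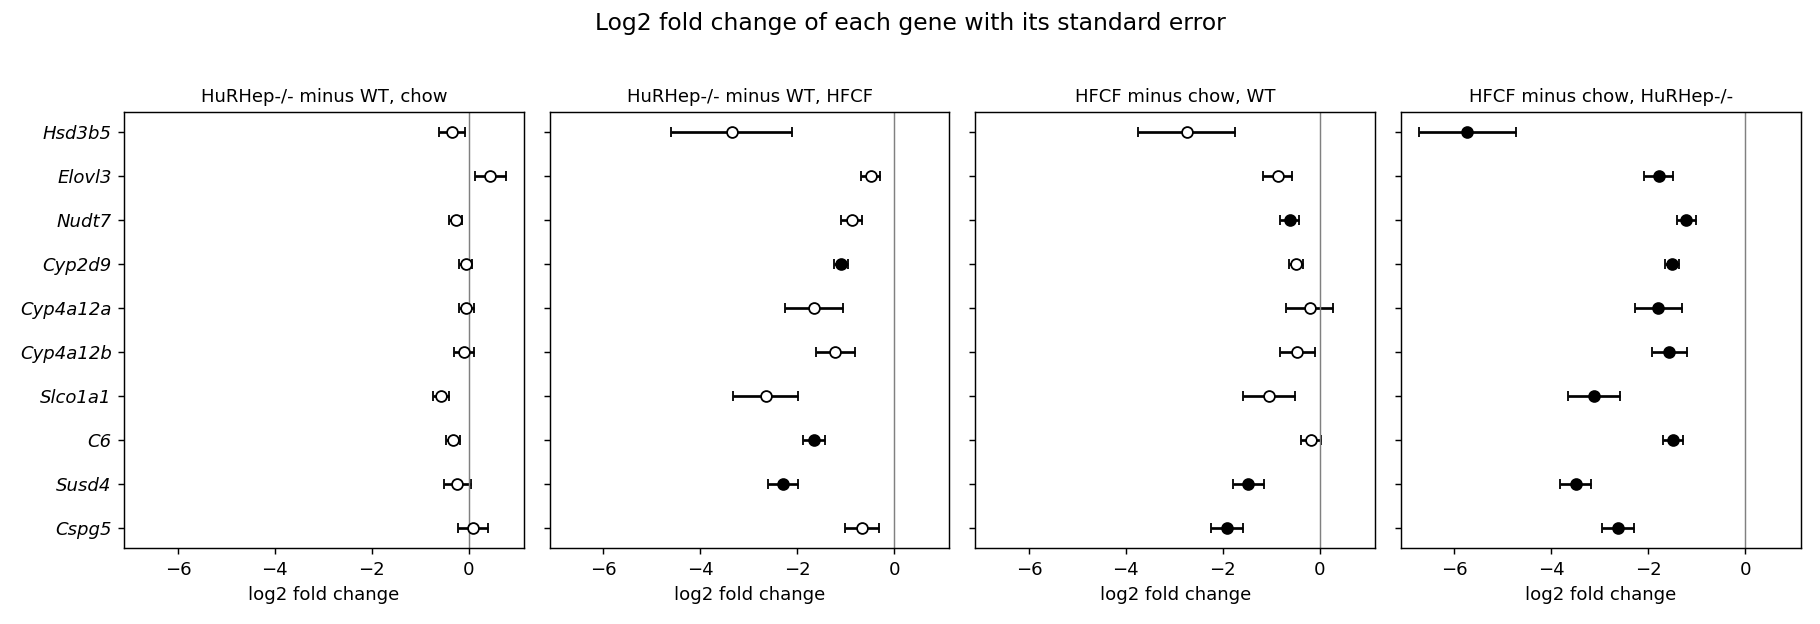
Log2 fold change (x axis) of each gene with its standard error in 4 comparisons from limma, with filled points for called genes. The genotype differences are small in chow and all below 0 in HFCF, and the diet differences in the livers labelled HuRHep-/- run from -5.73 to -1.21.

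From chow to HFCF in WT livers, all 10 estimates were below 0, with a median log2 fold change of -0.74. *Cspg5*, *Susd4* and *Nudt7* were called lower, beside 3.24% of 14535 genes called lower and 6.14% called higher, and 7 genes did not overlap, beside 19.8% of all genes. Without HFCF WT replicate 3, the median was -0.42, 2 genes were called (*Susd4* and *Cspg5*, beside 2.4% of all genes called lower), the estimate for *Hsd3b5* went from -2.74 to -1.27 and that for *C6* turned to 0.06. In livers labelled HuRHep-/- all 10 genes were called lower and none overlapped, with a median log2 fold change of -1.79, beside 4.91% of genes called lower, 14.2% called higher and 27.1% lower without overlap. The falls ran from 2.31-fold in *Nudt7* to 53.1-fold in *Hsd3b5*, with *Susd4* (11.3-fold), *Slco1a1* (8.66-fold) and *Cspg5* (6.17-fold) between them. All 10 were called in each of the 12 fits that left out 1 library.

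The genotype by diet difference, the HFCF genotype log2 fold change minus that in chow, was below 0 for all 10 genes, with a median of -1.21 and a range of -2.99 (*Hsd3b5*, standard error 1.42) to -0.59 (*Nudt7*, standard error 0.270). None of the 10 was called, and 0% of 14535 genes were called by limma, with 2088 at an unadjusted p under 0.05 and 0 called with voom weights. Without HFCF WT replicate 3, 34 of 14473 genes were called, *Susd4*, *C6* and *Cyp2d9* among them. The median of the 10 genes was then -1.51, with a range of -4.46 (*Hsd3b5*) to -0.83 (*Nudt7*).

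Pairs of the 10 genes were also compared among livers of the same group. With each group mean taken out, Pearson's r over 12 livers was above 0 for 42 of the 45 pairs of genes, with a median of 0.59 and a range of -0.48 (*Cyp4a12a* with *Cspg5*) to 0.94. Each gene was then set against the mean standardised deviation of the other 9. *Cyp2d9*, *Susd4*, *Hsd3b5* and *C6* followed it most closely (r of 0.89, 0.89, 0.88 and 0.87), and *Elovl3*, *Cspg5* and *Cyp4a12a* least (0.18, 0.24 and 0.29). Chow HuRHep-/- replicate 3 had the highest level of its group in all 10 genes. HFCF WT replicate 3 was the lowest of its group in 9 of 10 genes, and chow and HFCF HuRHep-/- replicate 1 were each the lowest in 7. Over the 10 genes, the mean standardised deviation of HFCF WT replicate 3 was -1.31, the furthest from 0 of the 12 livers. Correlations were not computed without that liver, nor for pairs of other genes. The points share libraries and scaling, and the correlations are descriptions.

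**Figure D4:**
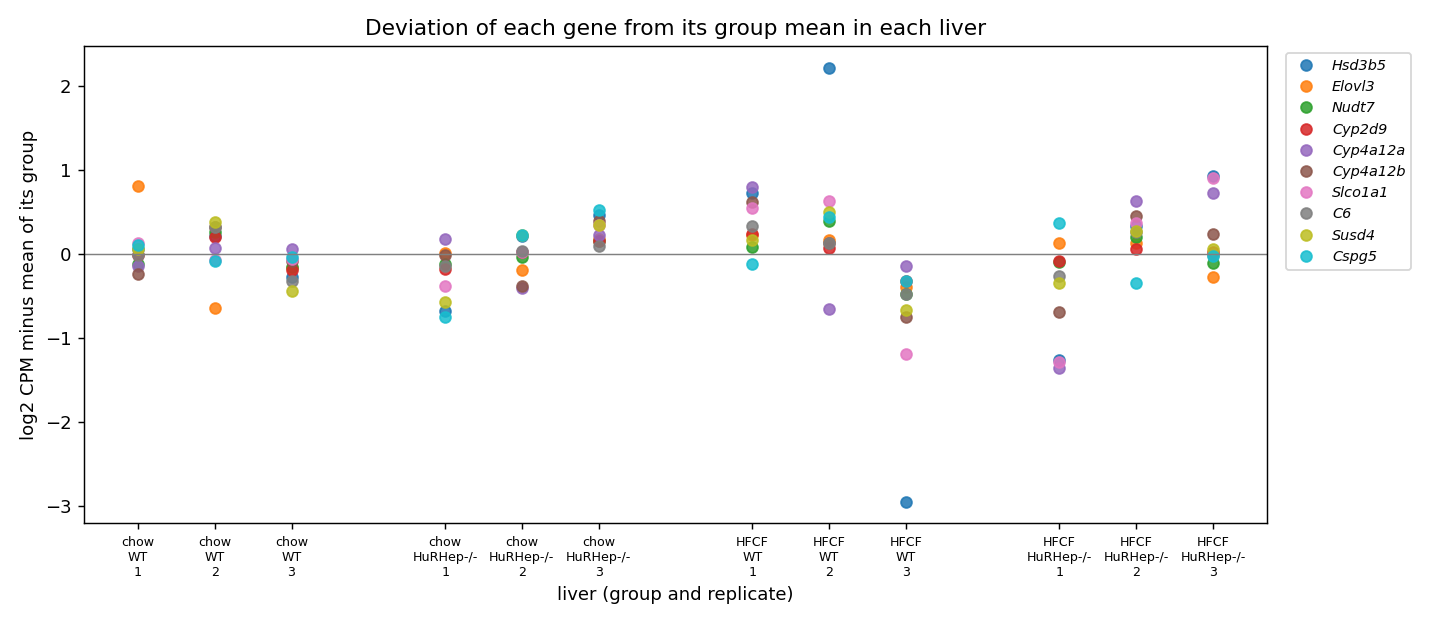
Log2 CPM of each gene minus the mean of its group (y axis) in the 12 livers, with 1 colour per gene. Most genes of a liver lie on the same side of 0, above it in chow HuRHep-/- replicate 3 and below it in HFCF WT replicate 3, where Hsd3b5 is the lowest point.

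Among 9058 other genes with a mean of at least 5 CPM, the 8 most like the mean profile of the 10 genes were *Zhx1* (r = 0.94), *Mup14* (0.94), *Hsf4* (0.93), *Trmt2b* (0.93), *Mup11* (0.93), *Ube2h* (0.92), *Mup2* (0.92) and *Tbx3os1* (0.92). The median r over these genes was 0.06, and r was 0.63 at the 95th percentile. *Mup2*, *Mup11* and *Mup14* encode major urinary proteins, small carriers of pheromones, and as near-identical copies their counts are uncertain one by one. All 3 were also lower in HFCF livers labelled HuRHep-/- (log2 fold changes of -4.32, -6.20 and -4.03, adjusted p = 0.0235, 0.0207 and 0.0304, limma), whereas none of the other 5 was called.

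The growth hormone pathway itself was next described from 16 listed genes. In the HFCF genotype comparison limma called 0 of these 16, of which 8 estimates were below 0, and the median log2 difference was 0.00. In chow 0 of the 15 tested were called, the median being -0.09. The receptor gene *Ghr* had 378, 459 and 377 CPM in HFCF WT and 293, 321 and 298 CPM in HFCF HuRHep-/-, without overlap. Its log2 fold change was -0.42 ± 0.0950 in HFCF (adjusted p = 0.0459, limma), under the limit on fold change, and -0.25 in chow (adjusted p = 0.17, limma). *Stat5b* had -0.21 ± 0.0910 in HFCF and did not pass the test (adjusted p = 0.176, limma). *Igf1*, the main circulating product of growth hormone action on liver, had 475 ± 45.2 CPM in HFCF WT and 463 ± 17.0 CPM (SD, n = 3) in HFCF HuRHep-/-, a log2 fold change of -0.05 ± 0.0860.

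*Igf1* differed by diet instead, by -0.45 in WT (adjusted p = 0.0087, limma) and -0.38 in HuRHep-/- (adjusted p = 0.0109, limma), in both cases under the limit on fold change. By diet 1 of 16 genes of the list was called lower in each genotype and none higher, *Prlr*, the prolactin receptor, in WT and *Igfals* in HuRHep-/-. *Prlr* was not called without chow WT replicate 1 or 3 or HFCF WT replicate 1 or 3. In WT 3 other genes of the list were called without HFCF WT replicate 1, 1 higher and 2 lower. *Igfals*, which encodes the subunit that holds IGF1 in its circulating complex, was called lower by diet in livers labelled HuRHep-/- (-0.62, adjusted p = 0.0153, limma), in 18 of 21 fits and not without chow HuRHep-/- replicate 3, where the adjusted p was 0.0635.

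The genes that respond to single growth hormone pulses varied widely among livers. *Cish*, a feedback inhibitor induced through STAT5B, had 12.968, 22.2 and 31.2 CPM in chow WT, 25.9, 4.67 and 9.60 in chow HuRHep-/-, 15.2, 3.57 and 3.69 in HFCF WT and 24.1, 4.98 and 4.55 in HFCF HuRHep-/-. *Bcl6*, a repressor that STAT5B lowers, had 25.9, 13.8 and 8.96, 3.77, 47.5 and 13.016, 9.61, 66.8 and 36.8 and 4.21, 32.7 and 39.7 CPM in the same order. In all 4 groups the liver with the most *Cish* had the least *Bcl6*. That liver was also the one with the lowest mean profile of the 10 genes in 3 of 4 groups, HFCF WT being the exception. These orders were noted after the values were seen and were not tested.

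None of *Cish* (0.47 ± 0.780), *Socs2* (-0.02 ± 0.367) and *Bcl6* (-0.72 ± 0.985) passed the test for genotype in HFCF (adjusted p = 0.724, 0.982 and 0.661, limma). *Cux2*, a repressor of male-pattern genes in female liver, had 3 to 22 raw counts in all livers but chow HuRHep-/- replicate 3, which had 107, and its log2 fold change was 0.67 ± 0.633 in HFCF. That liver had the highest level of its group in all 10 genes. The plot of the pathway shows these genes beside others of the list.

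**Figure D5:**
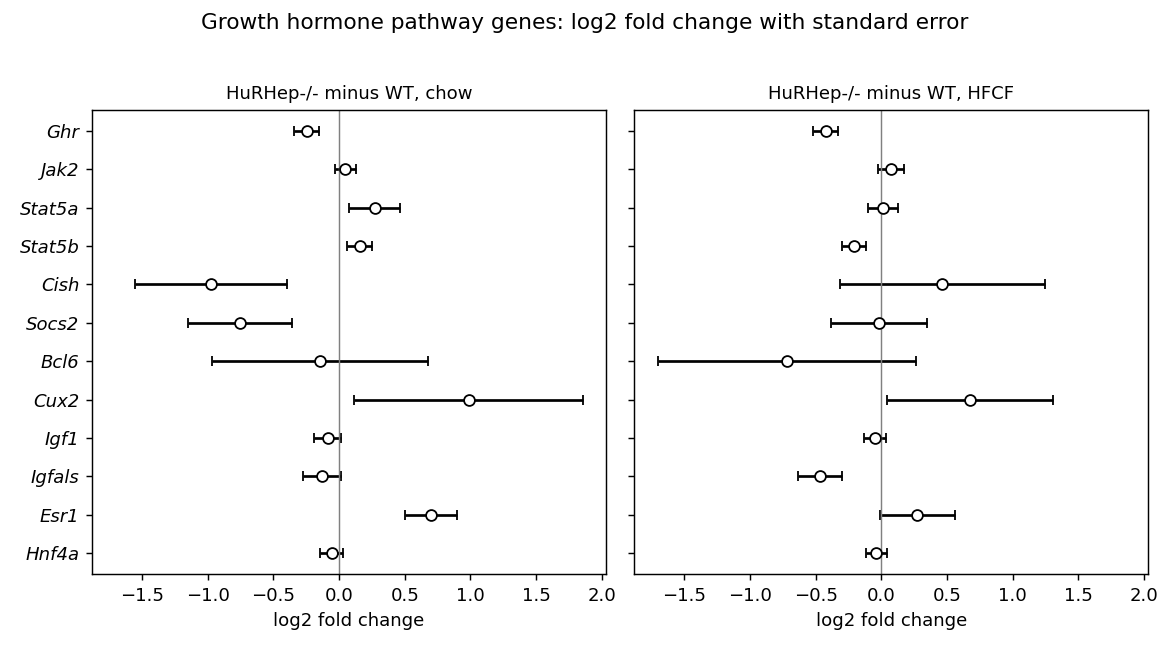
Log2 fold change (x axis) for genotype of growth hormone pathway genes with standard errors from limma, in chow (left) and HFCF (right), where open points were not called. No gene shown was called under either diet, and Cish, Socs2, Bcl6 and Cux2 have the widest errors.

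Other genes of male pattern were listed without the 10 above, 22 genes in all, and their list, too, was written with earlier results of these livers known. In chow 1 of 22 was called, in the higher direction, and the median log2 difference was 0.18. The sign of this median rested on single libraries, being -0.05 without chow HuRHep-/- replicate 3, -0.005 without chow WT replicate 3 and 0.15 to 0.32 without any 1 of the other 4. The gene called was *Mup20*, the pheromone darcin, at 7072 ± 638 CPM in WT and 15396 ± 1178 CPM (SD, n = 3) in HuRHep-/- (adjusted p = 0.0131, limma). In HFCF 3 of 22 were called lower and none higher, 21 of 22 estimates were below 0 and the median was -0.84, which was -0.42 without HFCF WT replicate 2, where 2 were called, and -1.16 to -0.71 without any 1 of the other libraries. In the fit on all 12 libraries 7 were called lower. *Mup11* went from 1054, 1147 and 96.5 CPM in HFCF WT to 4.74, 11.8 and 5.38 CPM in HFCF HuRHep-/- (-6.20 ± 0.927, adjusted p = 0.0207, limma), and *Mup17* from 834, 1346 and 141 to 8.33, 16.5 and 5.74 CPM (adjusted p = 0.0189, limma). *Ugt2b38*, a glucuronosyltransferase, was the third (-1.98 ± 0.428, adjusted p = 0.0427, limma). By diet 8 of 22 were called lower in WT and 20 of 22 in livers labelled HuRHep-/-, beside 3.24% and 4.91% of all genes, with medians of -1.21 and -2.08. The count in WT was 4 without HFCF WT replicate 3 (median -0.68), 5 without HFCF WT replicate 1, 15 without HFCF WT replicate 2 (median -1.55) and 6 to 9 without any 1 of the other libraries. Without HFCF WT replicate 3, which was the lowest WT liver for *Mup11* and *Mup17* too, 12 of 22 were called lower by genotype in HFCF, and without HFCF WT replicate 1, or HFCF HuRHep-/- replicate 1 or 2, 0 were.

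Genes of female pattern had mostly positive differences in HFCF. Of 33 listed, 26 were tested by genotype there, 21 estimates were above 0, 3 genes were called higher and none lower, and the median was 0.67. *Cyp2a4*, a steroid 15 alpha-hydroxylase of female liver, went from 0.686, 0.427 and 8.61 CPM in HFCF WT to 155, 81.1 and 88.9 CPM in HFCF HuRHep-/- (74.0-fold higher, adjusted p = 0.0243, limma). HFCF WT replicate 3, the WT liver with the least *Hsd3b5*, had the most *Cyp2a4*. *Hamp2*, a hepcidin gene, was lower in chow (-1.99 ± 0.435, adjusted p = 0.0471, limma) and higher in HFCF (1.33 ± 0.244, adjusted p = 0.0311, limma), and the difference between the diets did not pass the test (adjusted p = 0.0917, limma). *Prom1* was the third (1.03, adjusted p = 0.0427, limma). In chow 1 of 22 was called lower, *Hamp2*, the median being -0.15, which turned to 0.19 without chow WT replicate 3 and 0.06 without chow HuRHep-/- replicate 3. By diet 3 of 27 rose and 2 fell in WT, against 13 and 1 in livers labelled HuRHep-/-, beside 6.14% and 14.2% of all genes called higher. The 3 and 2 in WT became 3 and 0 without chow WT replicate 1 or 3, 4 and 0 without HFCF WT replicate 1, 4 and 3 without HFCF WT replicate 2, and 2 or 3 and 1 or 2 without any 1 of the other libraries. With voom weights they were 1 and 3, and with upper quartile factors 5 and 1. Without chow HuRHep-/- replicate 3 the 13 became 8, and without any 1 of the other libraries 9 to 13. The 3 genes called higher by genotype in HFCF became 5 without HFCF WT replicate 3, 2 without HFCF WT replicate 2, 1 without HFCF HuRHep-/- replicate 3 and 0 without any 1 of the other 3 libraries.

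Among 41 relatives of the 10 genes, 32 were tested in HFCF, and by genotype 1 was called higher and 2 lower, the median being -0.15, against 2 and 4 without HFCF WT replicate 3 and 0 and 0 or 1 without any 1 of the other 5 libraries. In chow 0 of 31 were called, and 0 to 2 without any 1 library. *Slco1a4*, the relative nearest in sequence to *Slco1a1*, was higher, 1.05 ± 0.230 (adjusted p = 0.0441, limma), while *Slco1b2*, another uptake transporter of bile acids and drugs, was lower, -0.59 ± 0.0940 (adjusted p = 0.0235, limma). *Cyp4a32* was also lower, -0.87 ± 0.198 (adjusted p = 0.0479, limma). *Cyp2d12*, the relative nearest to *Cyp2d9*, had 0.71 (adjusted p = 0.193, limma).

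Markers of other cells were read beside these results. Under HFCF, cholangiocyte markers summed to 38.6 to 87.4 CPM in WT and 133 to 242 CPM in HuRHep-/-, and 2 of 5 tested were called higher (*Krt7*, 2.63-fold, and *Krt19*, 2.49-fold, adjusted p = 0.0327 and 0.0247, limma), against 4 of 5 in the fit on all 12 libraries, 2 without HFCF WT replicate 3, 1 without HFCF WT replicate 2 and 0 without any 1 of the other 4 libraries. Stellate cell markers summed to 192 to 416 and 405 to 495 CPM, with 1 of 9 called higher (*Acta2*, 2.42-fold, adjusted p = 0.0376, limma), against 2 without HFCF WT replicate 2 or 3 and 0 without any 1 of the other 4 libraries. Macrophage markers summed to 292 to 489 and 462 to 668 CPM, with 0 of 10 called and all 10 estimates above 0. Without HFCF WT replicate 3, 3 were called, without HFCF HuRHep-/- replicate 3, 1, and in the fit on all 12 libraries, 2. Within HFCF WT, replicate 3 had the highest macrophage and stellate sums. Lymphocyte and sinusoidal endothelial markers had 0 of 7 (1 without HFCF WT replicate 3) and 0 of 8 called. In the fit on all 12 libraries these counts were 2 and 0. No listed marker of these cell types was at 0 in any group. Hepatocyte markers summed to 65773 to 71063 CPM in HFCF WT and 60657 to 65467 CPM in HFCF HuRHep-/-, with 0 of 8 called, the median being -0.05. From chow to HFCF in WT, 5 of 10 macrophage and 2 of 9 stellate markers were called higher, and all 8 hepatocyte estimates were below 0 (median -0.54), with *Ass1* and *Cps1* called lower, beside 6.14% of all genes called higher and 3.24% called lower. The 2 stellate markers became 6 without HFCF WT replicate 2 and 1 without chow WT replicate 1 or 3 or HFCF WT replicate 1 or 3, and the 5 macrophage markers became 3 without any 1 of these 4 and 4 to 6 without any 1 of the others. From chow to HFCF in livers labelled HuRHep-/-, where all 10 genes were called lower, 9 of 9 stellate (median 1.07), 5 of 5 cholangiocyte (1.5), 6 of 10 macrophage, 4 of 7 lymphocyte and 2 of 8 sinusoidal endothelial markers were called higher, beside 14.2% of all genes. The 5 cholangiocyte markers became 3 without chow HuRHep-/- replicate 3 or HFCF HuRHep-/- replicate 1 or 3, the 9 stellate markers 8 or 9, the 6 macrophage markers 4 to 7, the 4 lymphocyte markers 3 or 4 and the 2 sinusoidal endothelial markers 1 to 3 without any 1 library. There all 8 hepatocyte estimates were below 0 (median -0.46), with *Cps1* called lower. In chow livers labelled HuRHep-/- stellate markers summed to 149 to 219 and cholangiocyte markers to 47.1 to 77.3 CPM. Macrophage markers summed to 256 to 365 and hepatocyte markers to 75395 to 83884 CPM there. In chow WT livers these sums were 179 to 203, 35.1 to 79.0, 180 to 234 and 91359 to 112320 CPM, in the same order. With all chow libraries, none of the tested markers of these types was called by genotype. All 10 macrophage estimates were above 0 there (median 0.47), and 7 of 8 hepatocyte estimates were below 0 (median -0.10). The part of these cells in the levels of the 10 genes was not tested.

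Under chow none of the 10 genes was called in the fit on all chow libraries. In that fit 6 of 20 acute phase genes were called higher and 1 lower. *Saa1* was 16.1-fold higher (adjusted p = 0.0213, limma) and *Lcn2* 8.39-fold higher (adjusted p = 0.0286, limma). The acute phase counts were 8 and 1 without chow HuRHep-/- replicate 3 and 4 and 1 without chow WT replicate 2. Without any 1 of the other 4 libraries they were 0 or 1 and 0. Under HFCF 1 was higher (*Itih3*, adjusted p = 0.0246, limma) and 1 lower (*Hpx*, adjusted p = 0.00236, limma), against 6 higher without HFCF WT replicate 3. Of the clock genes, 0 of 15 were called in chow and 1 of 15, *Cry1*, was lower in HFCF (-0.78 ± 0.165, adjusted p = 0.0407, limma). The time of day of collection is not given in the sources used here.

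Most of these genotype calls of other genes were lost when 1 of several libraries was left out. Of 17 genes named above as called in HFCF besides the 10, 15 were called without HFCF WT replicate 3 and 9 without HFCF WT replicate 2. Of these 17, only *Ugt2b38* and *Hpx* were called without HFCF HuRHep-/- replicate 3, and only *Hpx* without HFCF WT replicate 1 or HFCF HuRHep-/- replicate 1 or 2. Of 6 of the named genes that were called in chow, 5 were called without chow WT replicate 2 or chow HuRHep-/- replicate 3, whereas 1, 2, 1 and 0 were called without chow WT replicate 1, chow WT replicate 3, chow HuRHep-/- replicate 1 and chow HuRHep-/- replicate 2.

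HuR binds AU-rich words, and these were counted in the 3′ untranslated regions of the GENCODE transcripts. ATTTA occurred in 6 of the 10 genes, against 69.8% of 13315 genes tested, and TTTNTTT in 5 of 10, against 68.2%. The median density was 0.61 per kb against 1.20 for ATTTA and 0.62 per kb against 1.57 for TTTNTTT. *Hsd3b5*, *Cyp2d9*, *Cyp4a12a* and *C6* held neither word, while *Slco1a1* held 6 and 5, *Nudt7* 4 and 13 and *Susd4* 1 and 3. No binding was measured here.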

How the data were processed

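Whole-liver RNA was sequenced in 12 mice, 3 in each of 4 groups taken from the labels. Per the study's methods, the authors aligned reads to GRCm38.p6 (RefSeq) on the reverse strand and counted them per gene in CLC Genomics Workbench. They deposited these raw counts in 1 table per diet, as text in which larger values carry a comma as digit separator. The separator was removed, and all values were then whole. A count model was not fitted. Gene names had turned into dates in 23 rows for chow and 27 for HFCF, and 20703 and 22617 identifiers, respectively, matched GENCODE M21.

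Genes needed 10 counts (scaled to library size) in 3 libraries and 15 in all. Log2 CPM was computed with a pseudocount of 0.5 and TMM factors (trims 0.3 and 0.05). limma 3.58.1 in R 4.3.3 with a variance trend gave two-sided tests with Benjamini-Hochberg adjustment over all genes tested. Genotype was fitted on the 6 libraries of each diet, and diet and the genotype by diet difference on all 12 libraries and the genes of both tables. A call is defined in the text. An exact permutation test of 3 livers against 3 cannot give a p under 0.1 and was not used. The fits were tested on simulated data with known changes.

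The 10 genes and all gene lists were chosen with earlier results of these data known. Named beside them are *Elavl1*, 7 genes of the growth hormone pathway (*Ghr*, *Stat5b*, *Bcl6*, *Cux2*, *Igf1*, *Socs2* and *Cish*), of each other list at most the 2 genes with the largest called genotype change in each direction, the nearest relatives in sequence and the 8 genes with the most similar profile. *Igfals*, *Ugt2b38*, *Prom1*, *Prlr*, *Ass1* and *Cps1* were named after their values were seen. A result of the growth hormone pathway list is not reported here, and the counts and medians of that list are given without it. The sources used here do not say whether livers with the same replicate number belong together, and the p-values measure only the spread between these samples. Alternatives were other scaling, filters, pseudocount and weights, the replicate block, all 12 libraries, no minimum fold change, summed *Cyp4a12* counts and leaving out each library in turn. Promoter windows and sequences came from RefSeq and GENCODE, with Python 3.11.15.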

Additional observations from a re-analysis of the deposited data

How the results depend on the processing

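Without a minimum fold change, limma called 558 genes by genotype in chow, 958 in HFCF, 3432 by diet in WT and 5563 in HuRHep-/-, against 301, 517, 1363 and 2771 with it. With all 12 libraries in 1 fit, 6 of the 10 genes were called lower by genotype in HFCF, against 3, beside 1.75% and 1.47% of all genes. Leaving out 1 library at a time gave 8 to 320 called genes by genotype in chow, 28 to 850 in HFCF, 847 to 1784 by diet in WT and 0 to 34 for the genotype by diet difference. In chow the count fell to 8, 79, 95 and 110 without HuRHep-/- replicate 2, WT replicate 3, HuRHep-/- replicate 1 and WT replicate 1. In HFCF it fell to 28, 32, 39 and 98 without HuRHep-/- replicate 1, HuRHep-/- replicate 2, WT replicate 1 and HuRHep-/- replicate 3, and rose to 850 without WT replicate 3. By diet in WT it fell to 847 without chow WT replicate 1 and 874 without HFCF WT replicate 3. Of the 10 genes, 0 to 1 were then called lower in chow, 0 to 8 in HFCF, 2 to 4 by diet in WT and 0 to 3 for the difference between diets. In these fits 0.03% to 1.13% of all genes were called lower by genotype in chow and 0.142% to 1.87% in HFCF. By diet in WT 332 of 14510 to 566 of 14508 genes were, and for the difference between diets at most 26 of 14473. The sign of a log2 fold change changed in 8 of 141 alternatives by genotype in chow and in 2 of 191 by diet in WT, all of them with a library left out, and in 0 in the other 3 comparisons.

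With the replicate block, 226 genes were called in chow, 764 in HFCF, 1354 by diet in WT, 2754 in HuRHep-/- and 0 for the difference between diets. By genotype in HFCF the block called 4 of the 10 genes and 7 of 22 other male-pattern genes lower, beside 1.87% of all genes. It called 5 of 26 female-pattern genes and 5 of 5 cholangiocyte markers higher, beside 3.47% of all genes. Deviations of same-numbered livers correlated at -0.03, 0.11 and -0.003 in chow and 0.09, 0.19 and 0.09 in HFCF, so that the numbers were not taken as pairs. In HFCF, but not in chow, every liver correlated best with its own number. Precision is limited by the spread of the HFCF livers of either genotype and, in *Cspg5*, by counts as low as 10.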
